A study of Laetiporus sulphureus with 6 samples.

Results

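The genes described are the alcohol oxidases (family AA3_3) and glyoxal oxidases (subfamily AA5_1) of *Laetiporus sulphureus* ATCC 52600, a brown-rot fungus. They were taken as all genes with a domain of AA3_3 or AA5_1 in the gene list that the study made from its genome annotation. This gave 6 genes, of which 5 were among the 10015 genes of the count table and 1, the AA3_3 gene g10603, was not and is not analysed here. RNA was measured in 2 groups of 3 cultures of this one strain. BIN is mycelium shaken for 24 h with 1 g of sugarcane bagasse in natura (not pretreated) in 100 mL of mineral medium at pH 7. T0 is the mycelium before that transfer, grown for 7 days in liquid medium from 15 agar discs of 8 mm. Both groups were kept at 30 °C and 180 rpm. BIN mycelium was also filtered and washed with water before the transfer, and was 24 h older. No group was kept for 24 h without bagasse. The shares of the handling, the added time, the new medium and the bagasse in any difference cannot be told apart. The sources used here do not give the carbon source of the T0 medium.

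Brown-rot fungi open the plant cell wall with hydroxyl radicals made by the Fenton reaction, in which ferrous iron reacts with hydrogen peroxide, before hydrolases attack the polysaccharides. The hydrogen peroxide is made outside or at the edge of the hypha by oxidases that pass electrons from a small substrate to oxygen. AA3_3 enzymes are flavin-dependent members of the glucose-methanol-choline (GMC) oxidoreductases and oxidize methanol and other short alcohols to aldehydes. In the brown rot *Gloeophyllum trabeum* such an alcohol oxidase has been found outside the cell during wood decay, and methanol is released there when lignin is demethylated. AA5_1 enzymes are copper radical oxidases. The best known, the glyoxal oxidase of the white rot *Phanerochaete chrysosporium*, oxidizes small aldehydes and supplies peroxidases with hydrogen peroxide. All 6 genes are known only by the gene numbers of the study's own annotation.

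The libraries held 9541028 to 15331728 counts. Every gene in the table had at least 10 counts and at least 1 count per 1000000 (CPM) in each library, so a gene silent in either condition is not among those tested. Levels of one gene across libraries are given as CPM scaled by edgeR's TMM method, and levels of different genes are compared as transcripts per 1000000 (TPM), which take gene length into account. Fold changes are BIN against T0. A gene is called higher or lower in BIN at an adjusted p of at most 0.05 (edgeR's quasi-likelihood test, Benjamini-Hochberg adjustment over 10015 genes) if BIN and T0 also differ by 1 or more on the log2 scale.

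Of the 5 tested oxidase genes, 2 were called higher on bagasse, the alcohol oxidase g10793 and the glyoxal oxidase g8037, and 0 were called lower. Over all genes, 11.3% were called higher and 14.5% lower, 25.9% in all (1134 and 1457 genes). Higher calls were 43.8% of all calls, but 54.8% with library size alone and 74.5% with limma on log2(TPM + 1) values, where the median gene itself was at 0.40. With no threshold on the fold change, 4 of the 5 passed the adjusted p threshold of 0.05 and all 4 of these were higher, against 71.1% of all genes changed in either direction and 35.2% higher. The median log2 fold change of the 5 genes was 0.86, beside a median of 0.00 over all genes. Every BIN library lay above every T0 library for 3 of the 5, g10793, g8037 and g6800, as it did for 37.6% of all genes.

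**Figure D1:**
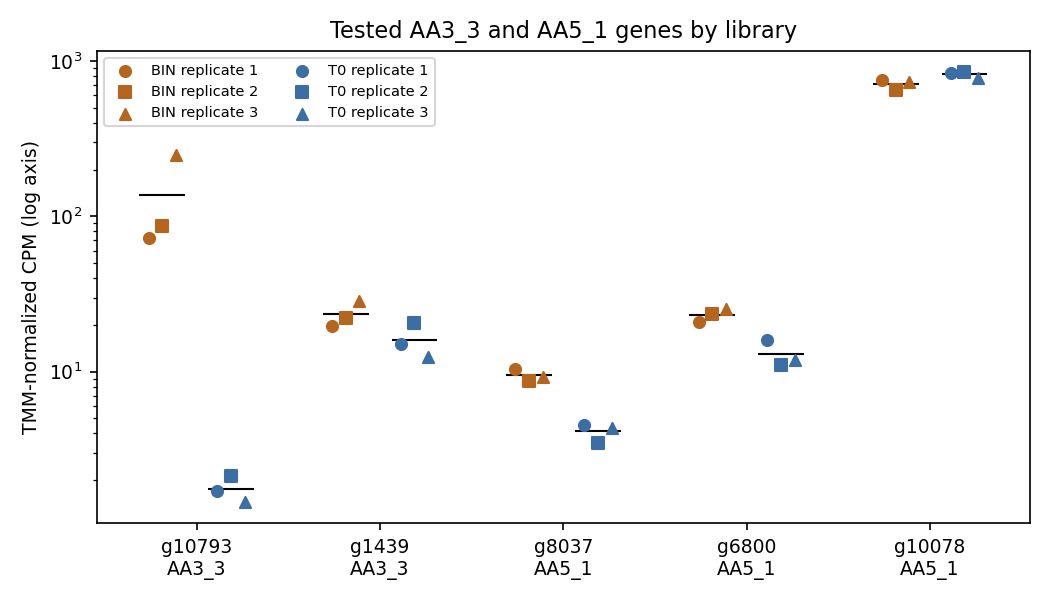
TMM-normalized CPM (log axis) of the 5 tested alcohol oxidase (AA3_3) and glyoxal oxidase (AA5_1) genes in each library, with BIN left of T0 for each gene; symbols mark the replicate and the horizontal line the mean of 3 libraries. The g10793 libraries lie between 72.3 and 249 in BIN and between 1.45 and 2.11 in T0, whereas those of g10078 stay between 654 and 846 throughout.

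The alcohol oxidase g10793 carried the largest difference. Its counts were 874, 1104 and 3440 in BIN replicates 1, 2 and 3, against 15, 30 and 21 in T0 replicates 1, 2 and 3. As TMM-normalized CPM these were 72.3, 87.0 and 249 in BIN, against 1.71, 2.11 and 1.45 in T0. All BIN libraries were far above all T0 libraries, and BIN replicate 3 stood well above the other BIN replicates. The log2 fold change was 6.26 (standard error 0.77, 95% interval 4.28 to 8.25, edgeR adjusted p = 0.00109), a 76.9-fold difference with an interval of 19.4 to 305, and it took rank 8 among all 10015 genes. The T0 level rested on few reads. The smallest T0 count, 15, has an exact 95% Poisson interval of 8.40 to 24.7 counts, which covers counting error only.

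The unevenness of g10793 on bagasse was extreme for this experiment. BIN replicate 3 was 3.13 times the mean of BIN replicates 1 and 2, the highest such ratio of all 10015 genes. This ratio was chosen because g10793 was already known to be uneven in BIN, so its rank is a description and not a test. The spread over the BIN libraries of g10793 was also high. The coefficient of variation of g10793 was 72.0% in BIN, at rank 3, where the median gene had 6.73%. In T0 it was 18.9%, and the median gene had 10.3%. The 25 genes with the highest ratio of BIN replicate 3 to the other BIN replicates did not share a direction. Of these, 6 were called higher, 7 lower and 12 not at all, beside 11.3% higher and 14.5% lower over all genes. Without BIN replicate 3 the log2 fold change of g10793 was 5.49, or 44.9-fold, with a standard error of 0.17 (edgeR adjusted p = 4.78e-07). The gene was called higher in all 17 alternative settings, with log2 fold changes of 5.22 to 6.57 and adjusted p of at most 0.0188. Some settings could not change the call, since no filter and unadjusted p used the same fit again.

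The other tested alcohol oxidase, g1439, behaved differently. It was measured at 19.6, 22.1 and 28.5 TMM-normalized CPM in BIN replicates 1, 2 and 3, against 15.1, 20.4 and 12.3 in T0 replicates 1, 2 and 3. The groups overlapped, since T0 replicate 2 lay above BIN replicate 1. Its log2 fold change was 0.55 (standard error 0.21, 95% interval 0.08 to 1.02), and it was not called. The edgeR adjusted p of 0.0389 was above 0.05 when BIN replicate 2, BIN replicate 3, T0 replicate 1 or T0 replicate 3 was left out, at 0.0662, 0.142, 0.0991 and 0.126. Leaving out glmTreat, which tests for a change beyond the threshold itself, the adjusted p ran from 0.00265 to 0.142 over the alternative settings. Within each group the alcohol oxidases ranked the libraries alike. In BIN both were highest in replicate 3 and lowest in replicate 1, and in T0 both were highest in replicate 2 and lowest in replicate 3. For g10793 the T0 order lies within counting error. The exact 95% Poisson intervals of its T0 counts overlap, at 8.40 to 24.7, 20.2 to 42.8 and 13.0 to 32.1 in replicates 1, 2 and 3. The share of all genes with these orders was not counted.

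The balance between these alcohol oxidases was therefore compared inside each library, where no scaling between libraries enters. The log2 ratio of the counts of g10793 to those of g1439, not divided by gene length, was 1.88, 1.98 and 3.13 in BIN replicates 1, 2 and 3, against -3.15, -3.27 and -3.08 in T0 replicates 1, 2 and 3. The mean ratio was 2.33 ± 0.69 in BIN and -3.17 ± 0.10 in T0 (SD, n = 3 each), a difference of 5.50 on the log2 scale. The groups did not overlap, and the two-sided exact permutation test gave p = 0.1, the smallest that 3 against 3 libraries allow (0.133 adjusted over the 4 pairs of genes compared). In TPM, g10793 made up 77.5%, 78.6% and 89.1% of the tested AA3_3 transcripts in BIN, against 9.52%, 8.80% and 9.91% in T0. Among the tested alcohol oxidases, the predominant transcript was thus g10793 in all BIN libraries and g1439 in all T0 libraries. The untested g10603 may differ.

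**Figure D2:**
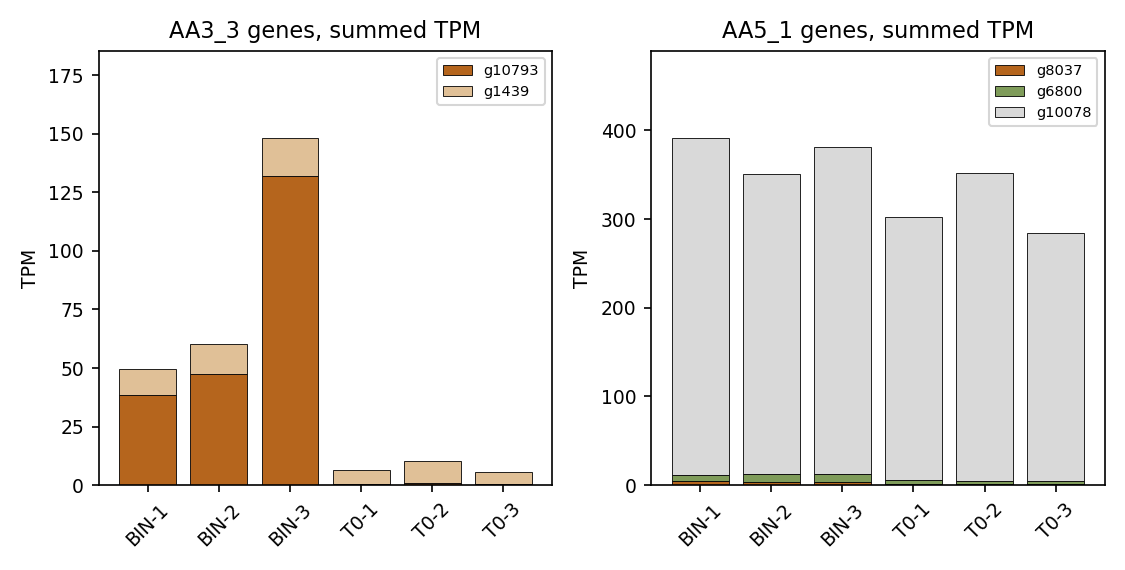
Summed TPM of the tested AA3_3 genes (left panel) and AA5_1 genes (right panel) in each library, stacked by gene, BIN libraries left of T0 libraries. The AA3_3 sum is 49.6 to 148 TPM in BIN and 5.62 to 10.4 TPM in T0 and changes its main gene, whereas g10078 makes up over 96.4% of the sum of the 3 tested AA5_1 genes in every library.

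Together the tested AA3_3 genes reached 86.1 ± 54.2 TPM in BIN and 7.58 ± 2.53 TPM in T0 (SD, n = 3 each), an 11.4-fold difference without overlap (two-sided exact permutation test, p = 0.1, the smallest possible). Without BIN replicate 3 it was 7.26-fold. The third AA3_3 gene, g10603, is not part of these sums.

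The glyoxal oxidase genes differed among themselves in level far more than in response. The gene g8037 was the least abundant, with 126, 111 and 127 counts in BIN replicates 1, 2 and 3, against 40, 49 and 63 in T0 replicates 1, 2 and 3. It reached 10.4, 8.75 and 9.20 TMM-normalized CPM in BIN, against 4.56, 3.45 and 4.36 in T0, and the groups did not overlap. The log2 fold change was 1.21 (standard error 0.16, 95% interval 0.85 to 1.56, edgeR adjusted p = 0.000109). The lower end of that interval lies under the threshold of 1, and g8037 was not called by glmTreat, which tests for a change beyond the threshold itself (adjusted p = 0.18, the highest of the 17 settings, whose lowest was 5.19e-08). It was not called either once a trend on gene length had been taken out of each library, at 0.83. The study's annotation of called genes marks no signal peptide for g8037 or for g10793.

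The second glyoxal oxidase, g6800, lay just short of a call. It was measured at 21.0, 23.3 and 25.3 TMM-normalized CPM in BIN replicates 1, 2 and 3, against 15.9, 11.1 and 11.9 in T0 replicates 1, 2 and 3. The groups did not overlap, and T0 replicate 1 was the highest of its group. Its log2 fold change was 0.86 (standard error 0.15, 95% interval 0.51 to 1.20, edgeR adjusted p = 0.00073). Without T0 replicate 1 it was 1.01 and the gene was called higher, and on log2(TPM + 1) values limma gave 1.08, on a scale that lifts the median gene to 0.40. With the trend on gene length removed it was 0.37 (edgeR adjusted p = 0.0775). That was the highest adjusted p of the settings apart from glmTreat, and the lowest was 2.02e-06, with DESeq2.

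The most abundant of all 5 genes was the glyoxal oxidase g10078. It held 754, 654 and 732 TMM-normalized CPM in BIN replicates 1, 2 and 3, against 840, 846 and 771 in T0 replicates 1, 2 and 3. On this scale each BIN library lay under each T0 library, but by little. The log2 fold change was -0.20 (standard error 0.11, 95% interval -0.44 to 0.04, edgeR adjusted p = 0.121), so that a change of 2-fold or more in either direction lies outside its interval. The sign depended on the scale. In TPM the values were 380, 338 and 368 in BIN, against 297, 348 and 280 in T0, and limma on log2(TPM + 1) values gave 0.24 (adjusted p = 0.0764, with 0.0026 to 0.638 over the settings apart from glmTreat). On that scale the median gene was at 0.40, so g10078 lay below the median gene on both scales.

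**Figure D3:**
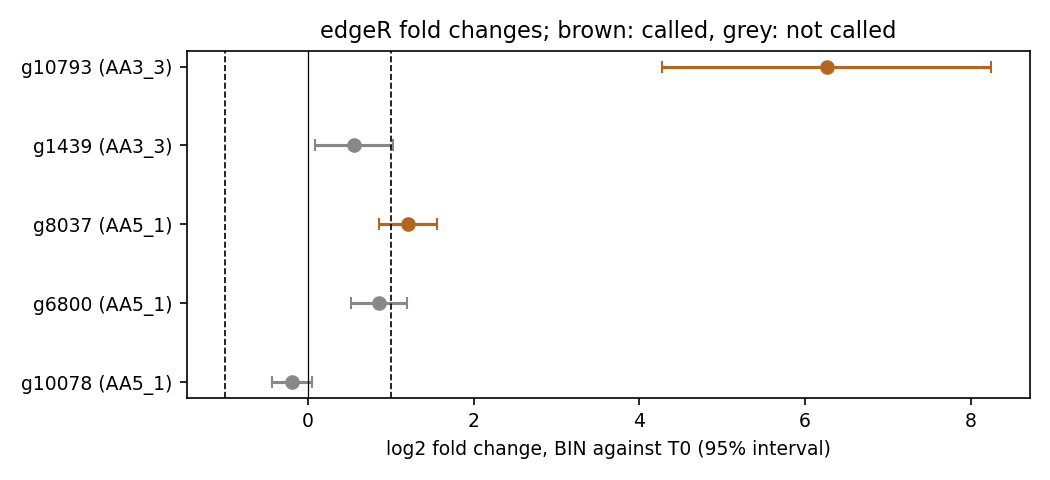
Log2 fold changes of BIN against T0 with 95% intervals (edgeR) for the 5 tested oxidase genes; dashed lines mark the threshold of 1 in either direction, brown points are called higher and grey points are not called. Only the interval of g10793, 4.28 to 8.25, lies wholly beyond the threshold.

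Within the libraries, the glyoxal oxidases g8037 and g6800 both gained on g10078. The log2 ratio of counts of g8037 to g10078 was -6.24 ± 0.07 in BIN and -7.64 ± 0.26 in T0 (SD, n = 3 each), and that of g6800 to g10078 was -4.94 ± 0.19 in BIN and -6.00 ± 0.27 in T0. Both ratios had no overlap between the groups (differences of 1.40 and 1.05, two-sided exact permutation p = 0.1 each, 0.133 adjusted over 4 pairs). Between g8037 and g6800 the ratios overlapped, at -1.29 ± 0.25 in BIN and -1.65 ± 0.18 in T0 (p = 0.2 before and after adjustment, same exact test). In TPM, g8037 made up 1.12% ± 0.06 of the transcripts of the 3 tested AA5_1 genes in BIN and 0.43% ± 0.07 in T0 (SD, n = 3 each; exact permutation p = 0.1), and g10078 made up 96.7% ± 0.24 in BIN and 98.5% ± 0.26 in T0. The AA5_1 sum was 374 ± 21.5 TPM in BIN and 313 ± 35.3 TPM in T0, with overlapping libraries (exact permutation p = 0.2). The direction of this sum depended on the scale, since in TMM-normalized CPM it was 746 ± 52.9 in BIN and 836 ± 42.2 in T0, without overlap (exact permutation p = 0.1). It also depended on which genes count as AA5_1. With g4370, which only the study's list of secreted proteins names as AA5_1, the sum was 515 ± 35.9 TPM in BIN and 353 ± 43.8 TPM in T0, without overlap (exact permutation p = 0.1), and g10078 made up 70.3% ± 2.07 of it in BIN and 87.4% ± 1.27 in T0. These alternative sums were chosen after seeing the data.

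Ordered by TPM in BIN, g10078 (362 ± 21.5) was followed by g10793 (72.7 ± 51.7), g1439 (13.4 ± 2.57), g6800 (8.20 ± 0.75) and g8037 (4.19 ± 0.35, SD, n = 3). In T0 the order was g10078 (308 ± 35.5), g1439 (6.88 ± 2.34), g6800 (3.36 ± 0.49), g8037 (1.34 ± 0.09) and g10793 (0.70 ± 0.19). No neighbours in either order overlapped in their libraries. The change in order came from g10793 alone, which was last in T0 and second in BIN. In T0 its TPM was lower than that of all but 0.22% of the genes, and on bagasse it stood at the 75.0 percentile. The gene g10078 stood at the 95.7 percentile in BIN and at the 94.8 percentile in T0.

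All 5 genes were long. Their relative lengths, read from the ratio of counts to TPM, were 1.64 to 2.68 times that of the median gene, and g6800 was the longest. Taking a smooth trend on length out of each library lowered all 5 log2 fold changes, to 6.02 for g10793, 0.36 for g1439, 0.83 for g8037, 0.37 for g6800 and -0.49 for g10078. Then g10793 alone of the 5 was called higher.

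**Figure D4:**
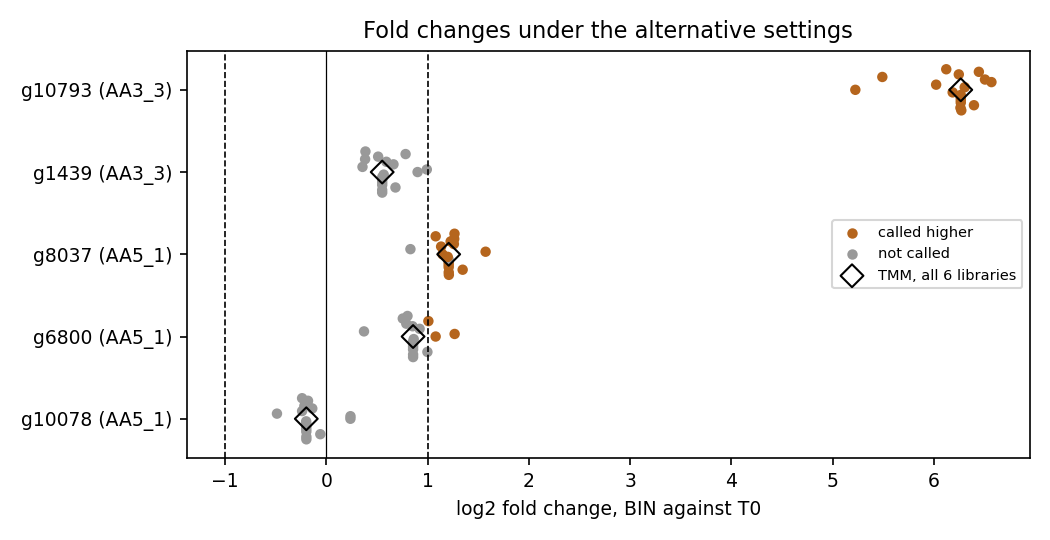
Log2 fold changes of BIN against T0 of the 5 oxidase genes under the 17 alternative settings (filled points, brown where called higher, grey where not called) and with TMM on all 6 libraries (open diamonds); dashed lines mark the threshold of 1. The points of g10793 run from 5.22 to 6.57, and those of g8037 and g6800 lie on both sides of the threshold.

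Hydrogen peroxide is also made by other flavin oxidases of the same genome. The AA3_2 subfamily, the aryl alcohol and glucose oxidases, shares its GMC fold with AA3_3. Of its 25 genes 0 were called higher and 11 lower, at a median of -0.49 (log2 fold change). With glmTreat 7 were lower. Over all genes 11.3% were called higher and 14.5% lower, and these shares stand beside the counts of each list that follows. The AA7 glucooligosaccharide oxidases had 2 called higher and 1 lower of 7, and 3 higher and 2 lower without T0 replicate 1. Without BIN replicate 1 or T0 replicate 3, 2 were lower. The largest changes called were a rise of g7793, at 2.33, and a fall of g9758, at -2.80, in AA7, and a fall of g11629, at -4.46, in AA3_2. Of the GMC genes listed without a family, g5676 was called lower, at -2.11, g9049 was at -0.71 and g10604 was not tested.

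While the summed AA3_2 transcripts were lower, though 14 of the 25 genes were not called, the alcohol and glyoxal oxidases took a larger part of the producer transcripts. Over the 37 tested genes of AA3_2, AA7, AA3_3 and AA5_1, the 5 genes held 21.7% to 27.7% of the TPM in the BIN libraries, against 4.92% to 5.27% in the T0 libraries. Their own sum was 460 ± 61.5 TPM in BIN and 320 ± 37.9 TPM in T0 (SD, n = 3 each), 1.44-fold, while in TMM-normalized CPM it was 905 ± 127 in BIN and 854 ± 45.7 in T0, 1.06-fold and overlapping. The AA3_2 sum was 873 ± 33.1 TPM in BIN and 4374 ± 1121 TPM in T0. Its largest parts in T0 were g5357 (1431 ± 862 TPM), g5677 (1398 ± 299 TPM) and g10342 (540 ± 171 TPM). In BIN these genes, picked by their high T0 level, stood at 86.8, 140 and 49.5 TPM. For AA7 the sum was 602 ± 62.1 TPM in BIN and 1649 ± 514 TPM in T0. The AA7 sum was carried by g9758, at 307 ± 56.4 TPM in BIN and 1553 ± 489 TPM in T0, and the other 6 AA7 genes together went the opposite way, with 296 ± 13.4 TPM in BIN and 95.9 ± 25.8 TPM in T0. The share of AA5_1 was 19.3% ± 0.74 in BIN and 4.94% ± 0.20 in T0, and that of AA3_3 was 4.48% ± 2.88 in BIN, or 2.83% without BIN replicate 3, and 0.12% ± 0.02 in T0. These shares compare transcripts only and were formed after the values were seen.

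**Figure D5:**
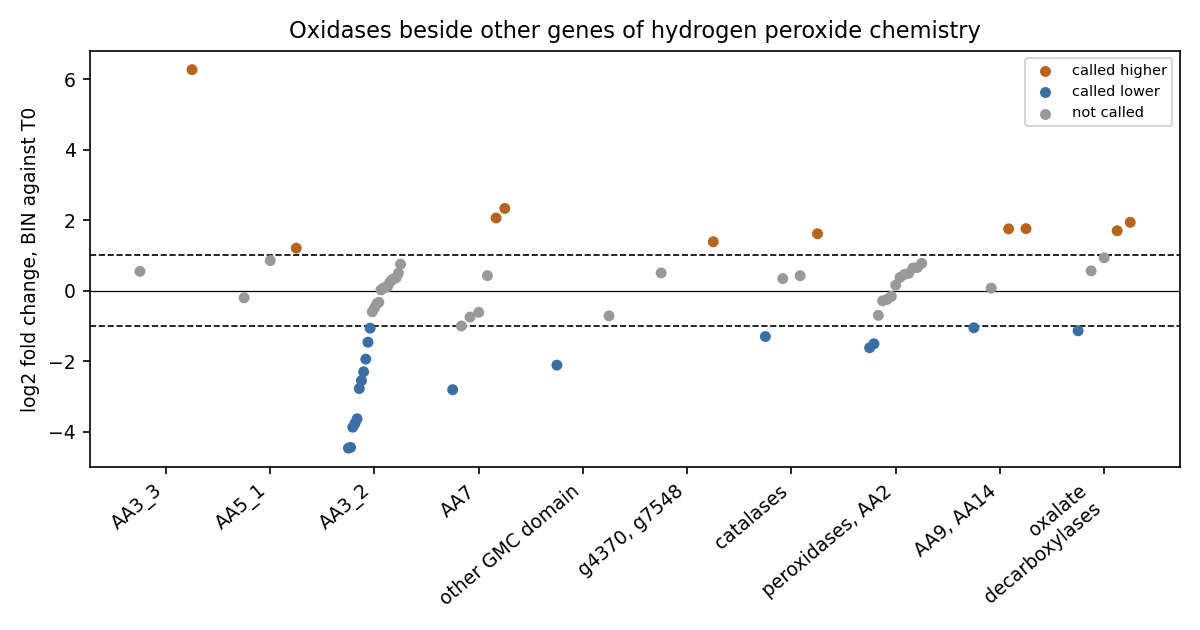
Log2 fold changes of BIN against T0 (edgeR) of each tested AA3_3 and AA5_1 gene beside other genes of hydrogen peroxide chemistry; brown is called higher, blue called lower, grey not called, and dashed lines mark the threshold of 1. The AA3_2 genes reach down to -4.46 and g10793 up to 6.26.

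A further glyoxal oxidase and a galactose oxidase, the latter given no AA5 family by the study, appear in its list of secreted proteins. The gene g4370, named there as an AA5_1 glyoxal oxidase but absent from the list by which the 6 genes were chosen, was measured at 276, 221 and 215 TMM-normalized CPM in BIN replicates 1, 2 and 3, against 99.1, 101 and 72.5 in T0 replicates 1, 2 and 3. The groups did not overlap, and g4370 was called higher at 1.39 ± 0.15 (log2 fold change ± standard error, edgeR adjusted p = 4.18e-05). The gene g7548, named as a galactose oxidase, was at 0.51 (standard error 0.08) and not called. In TPM, g4370 was at 141 in BIN and 40.1 in T0, above g8037 and g6800 and below g10078 in both.

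Among the genes that consume hydrogen peroxide, catalases split it into water and oxygen. Of the 4 catalase genes g9489 was called higher and g6487 lower, but neither with glmTreat, and g6487 not with limma on either TPM scale. The abundant g9489 was measured at 1156, 1222 and 1852 TMM-normalized CPM in BIN replicates 1, 2 and 3, against 360, 696 and 325 in T0 replicates 1, 2 and 3. Its log2 fold change was 1.62 (standard error 0.33, edgeR adjusted p = 0.0031), and g9489 was highest in BIN replicate 3 and in T0 replicate 2. For g6487 the log2 fold change was -1.30 (standard error 0.14), and g840 and g9613 were at 0.43 and 0.35 and not called. Peroxidases use hydrogen peroxide to oxidize other compounds. The study's annotation predicts 13 peroxidase genes, AA2 included, and whether each product uses hydrogen peroxide was not tested. Of these genes 0 were called higher and 2 lower, g7863 at -1.61 and g7552 at -1.50. This compares with 11.3% higher and 14.5% lower over all genes. On the TPM scales of limma, which lift the median gene to 0.40 and 0.43, 2 and 3 were called higher.

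Lytic polysaccharide monooxygenases, which can use hydrogen peroxide to cut polysaccharide chains, had 2 of 4 genes called higher and 1 lower, beside 11.3% and 14.5% of all genes. These were the AA14 gene g2453, at 1.76, and the AA9 gene g4622, at 1.75, against the AA14 gene g2443, at -1.05, while the AA9 gene g8320 was at 0.07. The gene g2443 was not called lower with library size alone, glmTreat, limma on either TPM scale or without T0 replicate 3. Oxalate decarboxylases break down oxalate, the iron chelator of brown rots. Of 5 genes g9972 and g9975 were called higher, at 1.94 and 1.70, g5302 was called lower, at -1.13, and g4033 and g4043 were at 0.94 and 0.56. None was called lower with library size alone, glmTreat, limma on either TPM scale or without T0 replicate 1. A further gene, 3 in all, was called higher with library size alone and with limma on log2(TPM + 0.1). The same held without BIN replicate 1, BIN replicate 2, T0 replicate 2 or T0 replicate 3. The only pectin methylesterase gene (CE8), whose enzyme releases methanol from pectin, was g11253, which was not among the tested genes.

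By likeness of profile, measured as the root mean square difference of log2 CPM centred over the 6 libraries, the genes nearest to g10793 were g3966 (0.53), g5567 (0.53) and g454 (0.57). The median gene differed from g10793 by 3.09. None of them is in the study's gene list, and their log2 fold changes were 6.57 for g3966, 5.42 for g5567 and 6.35 for g454. Likeness in fold change follows from the choice for every gene compared, since the profile holds the difference between BIN and T0. The BIN libraries of g3966, g5567 and g454 were more even than those of g10793, at 796, 740 and 963 TMM-normalized CPM for g3966. For g8037 the nearest were g1737 (0.04), g1192 (0.05) and g10076 (0.07), with log2 fold changes of 1.20, 1.15 and 1.20. For g6800 they were g7305 (0.05), g1880 (0.08) and g5824 (0.09), for g1439 g7342 (0.11), g5710 (0.12) and g8267 (0.12), and for g10078 g4956, g2892 and g1100 (0.04 each).

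The gene numbers run along the assembly, whose contig ends are not known here, so the 3 numbers on each side of each gene were read as likely neighbours. Of the 36 positions around all 6 genes, 30 were tested. Of these 3 were called higher and 1 lower, beside 11.3% and 14.5% of all genes. Around g10793, 4 of 6 positions were tested and 0 were called: g10790 was at 0.14, g10792 at 0.63, g10795 at 0.88 and g10796, a redox gene, at -0.99. The strong rise of g10793 was thus not shared by the tested genes next to it. Around g8037, g8036 and g8040 were called higher, at 1.53 and 1.14, and g8038 was called lower, at -1.14. Next to g10078, g10076 was called higher, at 1.20. The GMC gene g10604, which follows g10603, was like g10603 not among the tested genes.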

How the data were processed

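RNA was sequenced from 3 BIN and 3 T0 cultures, stated to be biological replicates (TruSeq mRNA libraries, Illumina sequencing). The authors filtered reads with Trimmomatic 0.32, removed rRNA with SortMeRNA, mapped to their own assembly with TopHat2 and deposited raw counts for each gene model. The counting program is not given in the sources used here, so reads shared by similar genes may be divided in an unknown way. The deposited TPM values came from these counts and a fixed length per gene, and sum to 1000000 per library. Counts were compared with edgeR 4.0.16 (TMM, filterByExpr, glmQLFit with robust estimation, glmQLFTest, R 4.3.3) without a replicate block. Standard errors are the log2 fold change divided by the square root of F. Shares and ratios within libraries were compared with exact permutation tests in scipy 1.17.1.

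The alternatives were DESeq2 1.42.0, RLE factors, library size alone, no filter, a mean of 1 TPM, unadjusted p, glmTreat, a replicate block, limma 3.58.1 on log2(TPM + 1) and log2(TPM + 0.1), removal of a lowess trend on gene length (span 0.3) and each library left out. The genes and lists were chosen with earlier results of these data known. The rule for named genes was all 6 oxidases, 3 nearest profiles and 3 neighbours on each side, the called gene with the largest rise and fall per list, and lists of up to 5 genes in full, with g7552 added to complete a count. The AA3_2 genes g5357, g5677 and g10342 were named outside this rule, as the largest parts of the AA3_2 sum in T0. The edgeR test was tested on simulated data. No gene number matched the 13840 reference genes of another strain, so neither positions nor sequences are given.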

Additional observations from a re-analysis of the deposited data

How the results depend on the processing

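Of the 85 alternative values of the 5 log2 fold changes, 78 kept their direction and their side of the threshold. With no filter and with unadjusted p the same fit was used again, so these settings add no separate support. The number of oxidase genes called higher was 2, but 1 with glmTreat and 1 with the gene length trend removed, where g8037 was lost, and 2 to 3 with each library left out. It stayed 0 for genes called lower in all 17 settings. The gene g6800 was called higher without T0 replicate 1, at 1.01, and with limma, at 1.08 for log2(TPM + 1) and 1.27 for log2(TPM + 0.1), where the median gene was at 0.40 and 0.43. The direction of g10078 turned with limma, at 0.24 on either TPM scale. The log2 fold change of g10793 was 5.49 to 6.57 with each library left out (edgeR adjusted p up to 0.0188, without T0 replicate 2), and DESeq2 gave 6.27. The share of AA5_1 transcripts from g8037 differed by 0.68 percentage points in TPM, by 0.77 in TMM-normalized CPM and by 0.64 to 0.71 with each library left out. That of AA3_3 from g10793 differed by 72.3 percentage points and by 68.6 to 74.4 with each library left out. With library size alone the median of all genes was 0.13 and g8037 stood at 1.35. Same-numbered libraries did not deviate together (correlations of 0.03, 0.01 and -0.10). No pairing by number was seen, but 3 libraries per group are too few to exclude one. With a replicate block 2 genes were called higher, g10793 at 6.18 (standard error 0.45) and g8037 at 1.20, and no call changed. Sums were tried in alternatives chosen after seeing the data. The BIN to T0 ratio of the AA5_1 sum was 1.20 in TPM and turned to 0.89 in TMM-normalized CPM, and that of AA7 was 0.37 and turned to 3.08 without g9758. The size of the g10793 rise has the widest error of the 5 genes, with a standard error of 0.77, which was 0.17 without BIN replicate 3 and 0.98 to 1.28 without a T0 library.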
